A study of Mus musculus with 33 samples.

Results

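This account follows 41 DNA repair and checkpoint genes in mouse liver that regrew after surgical removal of 70% of its mass. The genes were taken from a list of names, and no threshold on a measured value entered the choice, though earlier results of these data were known when it was made. Each was read from the probe set that the array's annotation gives to that gene alone and, where a gene had several, from its brightest one on average. The 41 genes are a small part of the 18193 genes with such a probe set. Of the 41, 39 read at least 5 on the log2 scale in 3 or more arrays and were tested among 13642 genes. The recombination genes Rad54b and Bard1 stayed below that limit.

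Livers of mice were collected at 0 d, in the early phase at 0.25 d, 0.5 d and 0.75 d after the partial hepatectomy, then at 1 d, 1.5 d and 2 d, and later at 3 d, 4 d, 7 d and 14 d. There were 3 livers at each of the 11 times, called biological replicates in the labels, and so 33 arrays. The labels name no strain, sex, age or genotype, and no sham-operated group, so the operation and the time since it cannot be told apart. The livers at 0 d served as the reference for all later times, and all comparisons with 0 d share those 3 arrays. The samples of 0.25 d, 0.5 d, 0.75 d and 1.5 d carry a separate, later run of sample numbers than those of 0 d and the other times. In their comparisons with 0 d an effect of that split cannot be told apart from time. If all mice were operated on at the same hour, these times also differ from 0 d in time of day, which cannot be told apart either. The description field of the labels speaks of fat tissue, while tissue and source say liver. Albumin (Alb) lay between 14.60 and 14.80 on the log2 scale on all 33 arrays and apolipoprotein A1 (Apoa1) between 14.29 and 14.53. The fat hormone gene Lep lay between 3.18 and 3.72, and adiponectin (Adipoq) had a median of 3.11 with a highest array at 7.07, so the arrays carried liver RNA. RMA values, the background-corrected, normalised log2 array signals that the authors deposited, are used throughout. A difference of 1 is a 2-fold change. Replicate 3 at 0.5 d correlated least with the other arrays of its time (r = 0.971), followed by replicate 1 at 0.25 d (r = 0.975), and calls that end, and values that clearly move, on leaving either out are given with and without it.

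Cells repair DNA by routes that differ in the lesion they handle. Homologous recombination copies an intact sister strand to mend breaks and stalled replication forks, and the Fanconi anaemia proteins feed crosslinked forks into it, so both work mainly during and after DNA synthesis. Mismatch repair corrects copying errors. Base excision and nucleotide excision repair replace damaged bases or stretches of bases, direct reversal removes an alkyl group in place, and end joining reseals breaks without a template, at any stage of the cycle. The signalling kinases ATM and ATR sense the damage and act through the checkpoint kinases CHK2 and CHK1 to hold the cell cycle. After partial hepatectomy most hepatocytes leave quiescence, replicate their DNA and divide.

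Genes of DNA synthesis and S phase are commonly bound at their promoters by E2F factors, so the promoters of 6 genes are shown. By the probe sets used, 3 are those that rose most at 2 d among genes with an E2F-like sequence there (Chek1, Brca1 and Brip1). The other 3 rose at no time (Msh3, Xrcc1 and Atm). Rad51ap1 also holds such a sequence, and its probe sets that were not used rose more than Brip1 did. The sequences are from RefSeq, mouse build GRCm38.p6, 5′ to 3′ along the gene's strand, with E2F-like matches in capitals. The search took 4 sequences on both strands, TTGGCGC and its variant TTGGCGG together with TTCCCGC and its variant TTCCCGG, from 250 bases before to 50 bases after each start. The stretches lie at chr9:36726609-36726638 (minus strand) for Chek1, chr11:101551926-101552105 (minus) for Brca1, chr11:86201164-86201343 (minus) for Brip1, chr13:92354974-92355253 (minus) for Msh3, chr7:24546549-24546728 (plus) for Xrcc1 and chr9:53536642-53536821 (minus) for Atm. Positions are counted from the start in RefSeq's promoter table, which lies 157 bases inside the outer end of the gene for Atm, 22 for Brip1 and 1 for Msh3, and at that end for the others.
Chek1: cagcatgacgcaagcaggttTTGGCGGGAA
Brca1: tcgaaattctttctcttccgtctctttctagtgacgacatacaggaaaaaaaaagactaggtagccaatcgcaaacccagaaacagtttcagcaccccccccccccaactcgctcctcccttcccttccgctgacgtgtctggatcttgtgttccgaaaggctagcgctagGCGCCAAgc
Brip1: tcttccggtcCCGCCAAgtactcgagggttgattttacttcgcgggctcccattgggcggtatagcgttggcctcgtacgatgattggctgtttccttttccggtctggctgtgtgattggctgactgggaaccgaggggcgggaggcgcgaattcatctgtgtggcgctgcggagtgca
Msh3: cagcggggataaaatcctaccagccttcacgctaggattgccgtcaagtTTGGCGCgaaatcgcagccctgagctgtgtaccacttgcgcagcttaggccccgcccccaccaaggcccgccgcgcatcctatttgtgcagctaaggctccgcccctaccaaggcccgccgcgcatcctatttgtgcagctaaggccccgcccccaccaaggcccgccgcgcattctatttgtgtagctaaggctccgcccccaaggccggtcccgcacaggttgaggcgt
Xrcc1: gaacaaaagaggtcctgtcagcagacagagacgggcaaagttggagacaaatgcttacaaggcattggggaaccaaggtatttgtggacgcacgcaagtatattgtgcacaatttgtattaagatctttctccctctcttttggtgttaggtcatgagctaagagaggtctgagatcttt
Atm: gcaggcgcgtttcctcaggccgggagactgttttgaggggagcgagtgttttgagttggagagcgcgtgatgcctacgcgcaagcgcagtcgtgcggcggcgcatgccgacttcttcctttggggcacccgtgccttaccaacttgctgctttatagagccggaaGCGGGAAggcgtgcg
The Chek1 stretch holds 2 overlapping matches, TTGGCGG from position 41 and TTCCCGC on the opposite strand from position 44. Brca1 has a match on the opposite strand from position 22 and Brip1 from position -140. Of the genes that did not rise, Msh3 has a match at -201 and Atm at 16, and Xrcc1 has none in this window. RefSeq promoters were matched for 33 of the 41 genes. A match stood in 11 of the 18 promoters of genes that rose at 2 d (61.1%), in 4 of 14 of the tested genes that did not rise then (28.6%), in 24.1% of 10959 genes tested on the arrays and in 14.9% of all 27025 promoters. The box CCAAT, on either strand, stood in 61.1%, 50%, 42.3% and 41.1% of the same sets, and the CHR-like sequences TTTGAA or TTCGAA in 5.56%, 7.14%, 16.7% and 21.7%. These shares describe letters in a window and were not tested, and they say nothing of binding.

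The genes fell into a sequence over time. At 0.25 d a group that included the mismatch genes Msh6 and Msh3 was low while the uracil glycosylase gene Ung and the endonuclease gene Apex1 were high. At 2 d the recombination genes and Chek1 reached their highest levels, and by 7 d the means of these genes were back near those of 0 d. In limma's moderated F-test over the 11 times, adjusted by Benjamini-Hochberg over all genes tested, 34 of the 39 genes varied, against 69.4% of all genes. Pms2, Ogg1, Polb, Lig4 and Atr missed the threshold of adjusted p under 0.05. The highest mean over the 11 times was at 2 d for 23 of 39 genes (59.0%), against 8.80% of all genes tested. Among these, Blm, Exo1, Brip1 and Palb2 read at least 5 in 6 or 7 arrays each, all from 1.5 d to 3 d. They could be tested only through those arrays, so their part in this share and in the F-test count is not support in itself. The lowest mean was at 0.25 d for 13 genes (33.3%), against 25.1%. Over the 10 comparisons with 0 d, 26 of the 39 genes rose at some time and 15 fell at some time, against 35.1% and 38.9% of all genes, so the share that fell was near that of all genes. Ogg1, Polb, Ercc1, Xrcc5 and Atr passed the threshold at no time, with differences between -0.38 and 0.32. Of the 41 genes 24 have several probe sets, for 19 of them another reached the limit for testing, and among these 0 calls went the opposite way. Some were called where the one used was not, such as 3 of Ercc1 that rose at 0.25 d or 0.5 d and 1 of Atr that fell by 0.34 at 0.5 d.

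**Figure D1:**
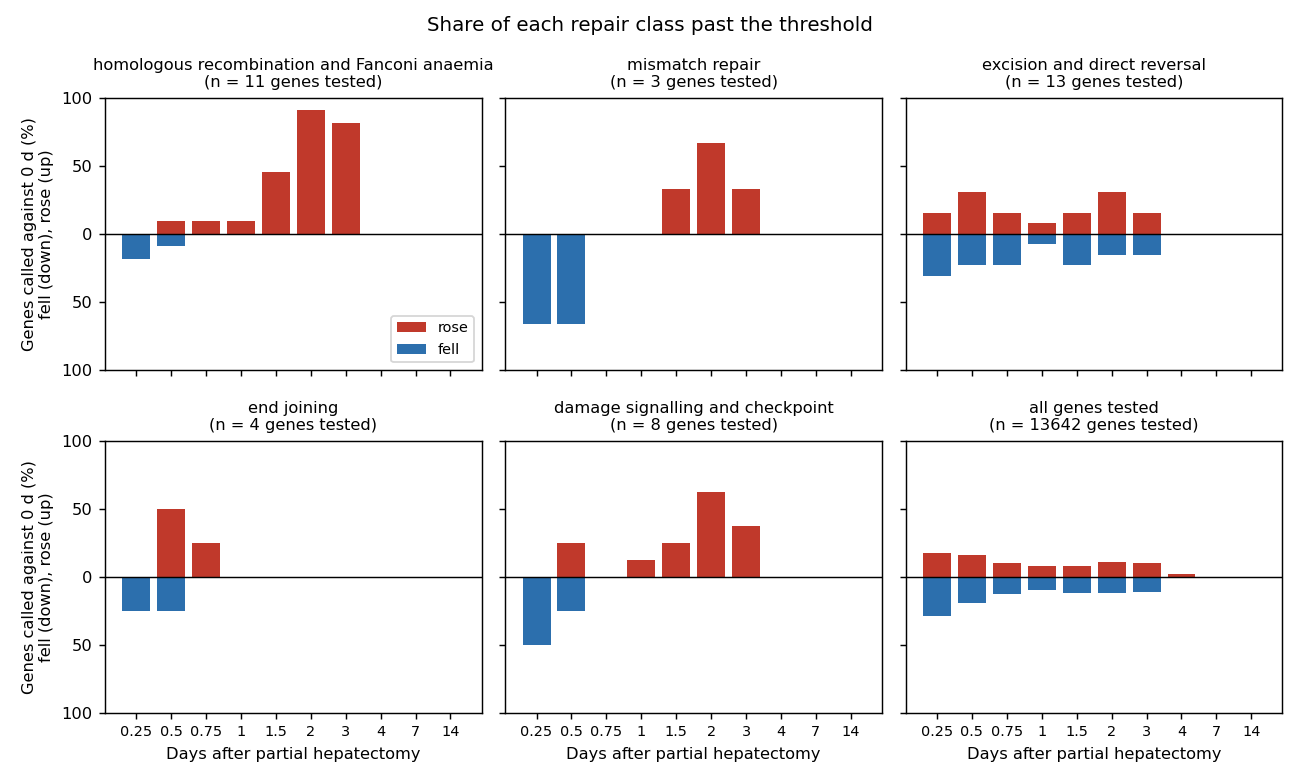
Share of each repair class that rose (up) or fell (down) against 0 d at each later time, in percent of the genes tested (adjusted p under 0.05), with all 13642 genes in the last panel. Recombination and Fanconi anaemia genes rise at 2 d (10 of 11) and 3 d (9 of 11), mismatch genes fall at 0.25 d (2 of 3), and end joining genes, by the probe sets used, show no call from 1 d on.

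At 2 d all 8 recombination genes tested and 6 of the 8 signalling and checkpoint genes had their highest mean, and 21 of the 39 genes rose while 2 fell. All 8 homologous recombination genes that were tested rose, with a median difference of 1.33, and 2 of the 3 Fanconi anaemia genes. Against these, 4 of 13 excision and direct reversal genes rose and 2 fell (median 0.01). By the probe sets used, 0 of 4 end joining genes passed in limma's test, also 0 at an unadjusted p under 0.05 (median 0.21). Another probe set of the end joining gene Xrcc4 did rise at 2 d. Over all genes tested 11% rose and 11.6% fell, with a median of -0.04. Of the 8 recombination genes 5, Brca1, Blm, Exo1, Brip1 and Palb2, averaged under 5 at 0 d and could reach the limit for testing through their later arrays, so the count of 8 is not support in itself. With no limit on low values all 10 recombination genes rose at 2 d, against 8.1% of 18193 genes. With only the 2 d and 0 d arrays in the fit 15 of the 39 genes rose and 0 fell. The differences between the classes were not tested.

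By the probe sets used, Chek1, the kinase that holds the cell cycle when forks stall, changed most. Another probe set of Rad51ap1 rose more, by 3.54 at 2 d. For Chek1 the 3 livers at 0 d read 4.92, 5.05 and 5.63, and those at 2 d 8.71, 8.02 and 8.18. Every 2 d liver lay above every 0 d liver. The difference was 3.11 (SE 0.27, n = 3 livers a time, 8.61-fold), with an adjusted p of 2.7e-08 from limma. Chek1 already stood at 6.89, 7.94 and 7.58 at 1.5 d, a rise of 2.27 (SE 0.27), and at 7.72, 7.49 and 7.08 at 3 d, a rise of 2.23 (SE 0.27). At 4 d its arrays read 6.02, 5.51 and 5.37, a difference from 0 d of 0.43 (SE 0.27, limma adjusted p = 0.451). A second probe set of Chek1 rose by 2.90 at 2 d. The rise at 1 d, 0.86, did not pass when liver 1 or 2 of 0 d or liver 2 or 3 of 1 d was omitted (highest adjusted p 0.16, limma), with the mean of the gene's probe sets (adjusted p = 0.107, limma) and with only the 1 d and 0 d arrays (adjusted p = 0.0657, limma).

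BRCA1 helps prepare broken ends for recombination, and PALB2 bridges it to BRCA2, which acts later in the same route. Brca1 read 5.04, 4.52 and 4.73 at 0 d and 7.71, 7.02 and 7.13 at 2 d, with no overlap. It rose by 2.52 (SE 0.25, limma adjusted p = 7.67e-08). Palb2 read 3.61, 4.21 and 4.04 at 0 d and 5.97, 5.67 and 5.63 at 2 d, with no overlap either. Its rise was 1.80 (SE 0.17, limma adjusted p = 5.12e-08). Brca2 moved less: 6.38, 6.07 and 6.23 at 0 d against 7.52, 6.98 and 7.34 at 2 d. The groups did not overlap, and Brca2 rose by 1.05 (SE 0.15, limma adjusted p = 1e-05). Brca1 was already higher at 0.5 d by 0.69 (SE 0.25) and at 0.75 d by 0.75 (SE 0.25). Its 2 other tested probe sets were called at neither time (0.19 and 0.35, then 0.47 and 0.42). These early calls were weaker: omitting liver 2 or 3 of either time ended the one at 0.5 d (highest adjusted p 0.133, limma), and omitting liver 2 or 3 of 0 d, or any of 0.75 d, ended the one at 0.75 d (highest adjusted p 0.122, limma).

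The 5 remaining recombination genes tested also rose at 2 d. The nuclease gene Exo1, which resects broken ends, read 3.80, 4.40 and 3.96 at 0 d and 5.55, 5.36 and 5.42 at 2 d, a rise of 1.39 (SE 0.14, limma adjusted p = 9.36e-08). Brip1, a helicase that binds BRCA1, rose by 1.37 (SE 0.17), the strand-exchange motor gene Rad54l by 1.29 (SE 0.18), Rad51ap1 by 1.26 (SE 0.21) and the helicase gene Blm by 0.94 (SE 0.19). None of these overlapped with 0 d. At 2 d replicate 2 was the lowest liver for Rad51ap1 (5.43 against 6.62 and 6.75), Rad54l (5.87 against 6.67 and 6.61) and Brip1 (5.01 against 5.80 and 6.09). Without it these rose by 1.68, 1.55 and 1.69, and 25 genes passed at 2 d in place of 23. The 3 other probe sets of Rad51ap1 rose by 2.65 to 3.54 at 2 d, more than the one used, and the second of Exo1 by 3.02. Those of Rad51ap1 also rose at 1.5 d, by 1.20 to 2.45, and fell from 3 d to 4 d, by 1.68 to 1.89. The one used was called in neither comparison. The second of Rad54l differed in size and timing: it rose by 0.52 at 2 d, was already higher by 0.40 to 0.50 at all 4 times from 0.25 d to 1 d, and from 1 d to 2 d differed by 0.05 (limma adjusted p = 0.817).

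Rad54b and Bard1, below the limit for testing, were read without it. Rad54b, a relative of Rad54l, read 2.89, 2.92 and 3.06 at 0 d and 5.46, 4.25 and 5.23 at 2 d, so every 2 d liver was higher. Its difference was 2.02 in the fit with no limit (limma adjusted p = 1.79e-07 over 18193 genes). Bard1, the partner of BRCA1, read 3.06, 3.01 and 3.04 at 0 d and 3.75, 3.05 and 3.59 at 2 d, a difference of 0.43 (limma adjusted p = 0.0499) at a level near the array's floor.

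Of the 3 Fanconi anaemia genes, Fanci and Fancd2 rose at 2 d. Fanci, which with Fancd2 forms the clamp loaded at crosslinks, read 6.13, 5.96 and 5.85 at 0 d and 6.98, 6.05 and 6.95 at 2 d, and rose by 0.68 (SE 0.17, limma adjusted p = 0.00413). Fancd2 rose by 0.49 (SE 0.15, limma adjusted p = 0.0212). Replicate 2 at 2 d lay within the range of 0 d for Fanci and, at 5.42, below every 0 d liver for Fancd2. Fancd2 no longer passed when liver 1 or 2 of 0 d, or liver 1 or 3 of 2 d, was omitted (highest adjusted p 0.152, limma), and with only the 2 d and 0 d arrays both were lost (adjusted p 0.114 for Fanci and 0.193 for Fancd2, limma). Fanca, part of the core ubiquitin ligase complex, differed by 0.29 (SE 0.10) at 3 d with an adjusted p of 0.0423, and Fanci by 0.47 (SE 0.17) with an adjusted p of 0.047, both from limma. With no limit on low values neither passed at 3 d (limma adjusted p 0.054 and 0.0565), nor with quantile normalisation (0.0582 and 0.0627). The Fanci call at 3 d was lost whichever of the 6 arrays was left out (highest adjusted p 0.142), and that of Fanca on omitting liver 2 or 3 of 0 d, or liver 1 or 3 of 3 d (highest adjusted p 0.244, limma).

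Of the 8 signalling and checkpoint genes 5 rose at 2 d, with a median of 0.42. Mdc1, the scaffold that spreads the damage signal along chromatin, read 6.12, 6.53 and 6.31 at 0 d and 8.22, 7.20 and 7.63 at 2 d, a rise of 1.36 (SE 0.18, limma adjusted p = 4.04e-06) with no overlap. Chek2, the kinase below ATM, was first low and then high. It read 5.50, 5.41 and 5.59 at 0 d, 5.06, 4.78 and 4.11 at 0.5 d, and 6.81, 5.86 and 7.17 at 2 d. It fell by 0.85 (SE 0.23) at 0.5 d and rose by 1.11 (SE 0.23) at 2 d, and neither time overlapped with 0 d. Without 0.5 d replicate 3 the difference at 0.5 d was -0.58 (adjusted p = 0.0627, limma), and with only the 2 d and 0 d arrays the rise at 2 d had an adjusted p of 0.0514. Rad50, of the complex that tethers broken ends, rose by 0.43 (SE 0.12) and Trp53bp1, which steers breaks to end joining, by 0.41 (SE 0.14). Neither passed when liver 1 of 0 d, or liver 1 or 3 of 2 d, was omitted, and Trp53bp1 also needed liver 3 of 0 d (highest adjusted p 0.0644 and 0.149, limma). For Trp53bp1 other tested probe sets read -0.09 and -0.14 at 2 d, and the mean of its probe sets 0.07 (adjusted p = 0.451, limma). Atm, Atr and Nbn did not pass at 2 d.

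**Figure D2:**
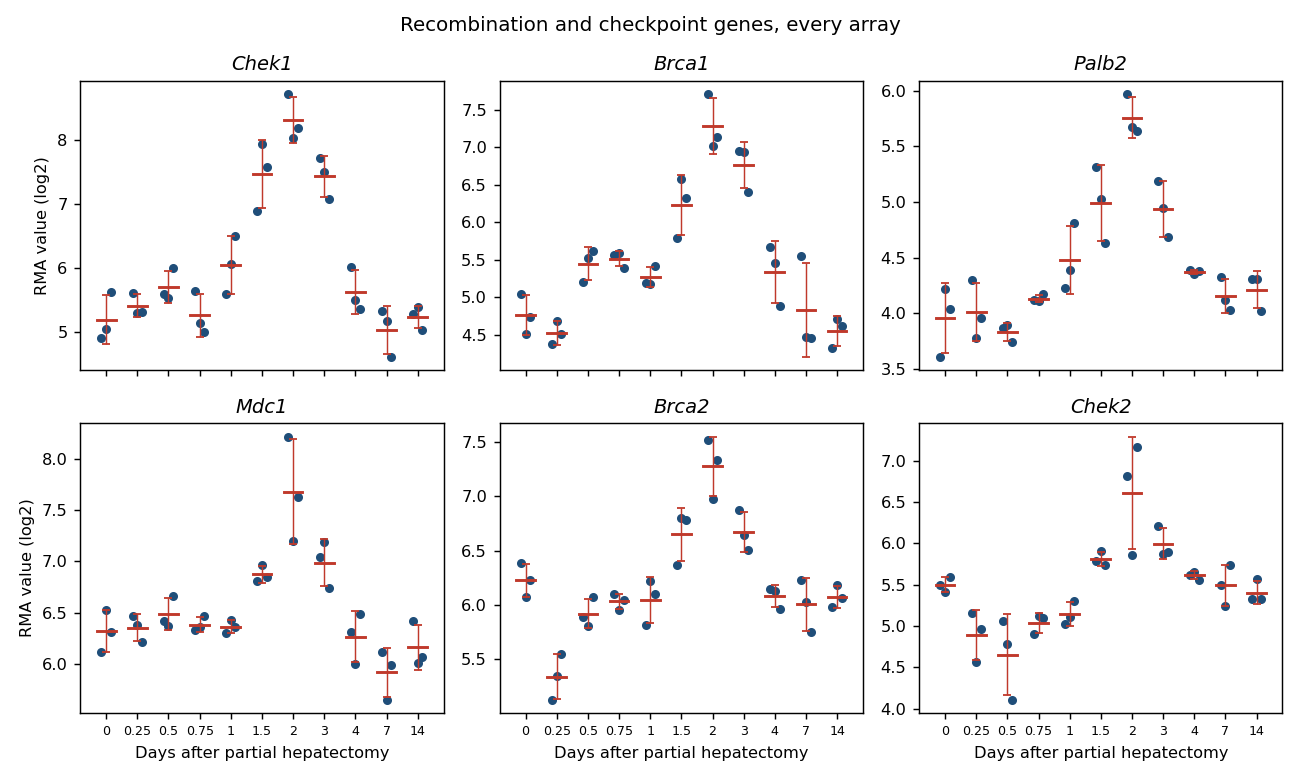
RMA values (log2) of Chek1, Brca1, Palb2, Mdc1, Brca2 and Chek2 on every array against days after partial hepatectomy; points are livers, red bars the mean and error bars the SD of 3 livers. All 6 genes are highest at 2 d, where Chek1 reads 8.02 to 8.71 against 4.92 to 5.63 at 0 d.

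The step from 1 d to 2 d was tested on its own, and from 3 d to 4 d. Between 1 d and 2 d 19 of 39 genes rose and 0 fell, against 6.34% and 4.01% of all genes tested; 0 also fell at an unadjusted p under 0.05. The increases were 2.25 (SE 0.27) for Chek1, 2.02 (SE 0.25) for Brca1, 1.56 (SE 0.17) for Brip1, 1.47 (SE 0.23) for Chek2 and 1.32 (SE 0.18) for Mdc1. The end joining gene Xrcc6 also rose over this step, by 0.46 (SE 0.14, limma adjusted p = 0.0332). At 1.5 d 10 genes had risen and 3 had fallen against 0 d (8.33% and 11.7% of all genes). The 1.5 d livers were also set against the mean of 1 d and 2 d, because 1.5 d lies at another clock time than the whole-day times. That comparison gave 0 calls in limma, with 1 at an unadjusted p under 0.05 and 0.022% of all genes called. At 3 d 15 genes rose and 2 fell against 0 d (10.2% and 10.9% of all genes). Without 0 d replicate 1 the count at 1.5 d was 8, and without 3 d replicate 1 that at 3 d was 11.

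From 3 d to 4 d 8 genes fell and 1 rose, against 3.23% and 3.03% of all genes. Chek1 dropped by 1.80 (SE 0.27), Brca1 by 1.43 (SE 0.25), Mdc1 by 0.72 (SE 0.18), Brip1 by 0.66 (SE 0.17), Exo1 by 0.60 (SE 0.14), Brca2 by 0.59 (SE 0.15), Palb2 by 0.56 (SE 0.17) and Msh6 by 0.46 (SE 0.13). The one that rose was Mgmt, which removes alkyl groups from guanine, with 7.35, 7.30 and 7.35 at 3 d and 7.97, 7.83 and 7.58 at 4 d, a difference of 0.46 (SE 0.13, limma adjusted p = 0.0303). The number of calls over this step fell from 9 to 2 without 3 d replicate 1, 3 without 3 d replicate 2, and 4 without 4 d replicate 2 or 3, and a rise was called in 1 of those 6 fits, that without 4 d replicate 3. Against 0 d, 0 of 39 genes passed in limma at 4, 7 or 14 d, where 2.86%, 0.183% and 0.0147% of all genes did. At an unadjusted p under 0.05 there were 8, 4 and 5. Between 4 d and 7 d 0 passed, with 7 at an unadjusted p under 0.05 and 0 calls among all genes.

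**Figure D3:**
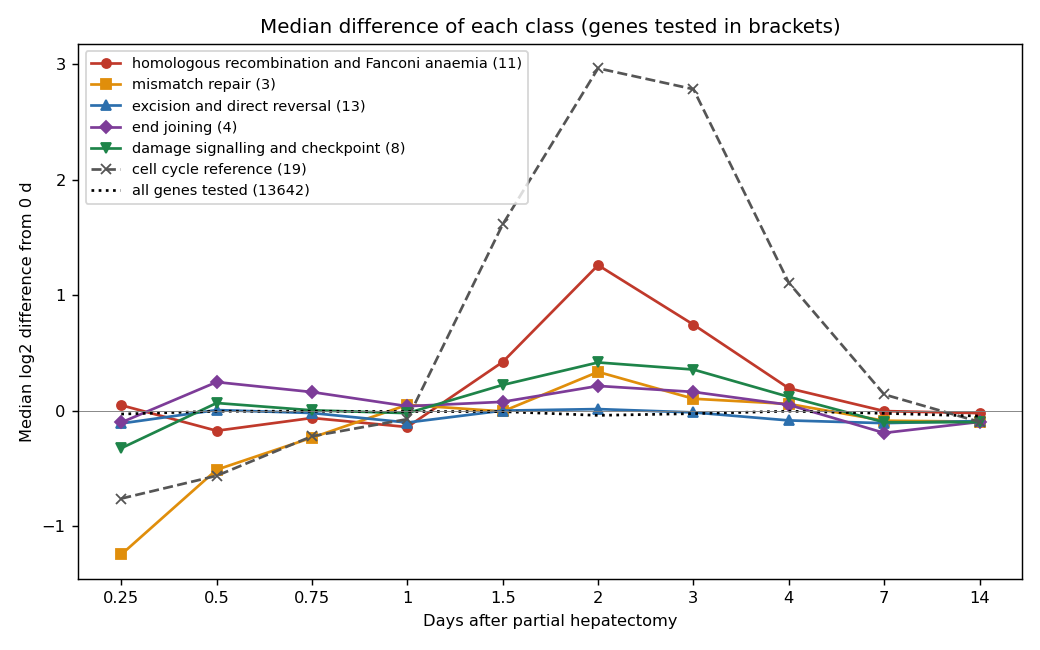
Median log2 difference from 0 d of each class against days after partial hepatectomy, with 19 cell cycle genes (dashed) and all genes tested (dotted). The recombination and Fanconi anaemia median is highest at 2 d (1.26), the cell cycle median reaches 2.97 there, and the mismatch median is lowest at 0.25 d (-1.25).

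At 0.25 d 13 genes fell and 2 rose, against 28.8% and 17.2% of all genes. The falls spread over classes: 2 of 3 mismatch genes, 4 of 8 signalling genes, 2 of 8 recombination genes, 4 of 13 excision and direct reversal genes and 1 of 4 end joining genes. The share of genes that fell was near that of all genes. Quantile normalisation moved the split of all genes from 2340 higher and 3925 lower to 3072 and 3147, and that of the repair genes to 5 higher and 14 lower. Without 0.25 d replicate 1, 14 of the 39 genes passed.

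Msh6 and Msh3 bind mispaired bases and small loops as partners of the same protein. Msh6 read 6.81, 6.74 and 6.78 at 0 d and 5.33, 5.29 and 5.25 at 0.25 d, with groups far apart. It fell by 1.49 (SE 0.13, limma adjusted p = 4.36e-09) and later rose to 8.20, 7.71 and 7.63 at 2 d, 1.07 (SE 0.13) above 0 d. Msh3 read 7.16, 7.23 and 7.15 at 0 d and 5.60, 5.82 and 6.40 at 0.25 d, and fell by 1.25 (SE 0.20, limma adjusted p = 1.96e-05). At 2 d Msh3 read 7.15, 6.81 and 7.05, which differed from 0 d by -0.18. At 0.5 d Msh3 read 6.68, 6.64 and 5.50; without replicate 3 its fall was -0.52 in place of -0.91, still past the threshold. A second probe set of Msh3 read -0.23 at 0.25 d (limma adjusted p = 0.156). Pms2, which cuts the strand to be replaced, rose by 0.34 at 2 d (SE 0.12, limma adjusted p = 0.0396) with groups that overlapped. That call ended on omitting liver 2 or 3 of 0 d, or liver 1 or 3 of 2 d (highest adjusted p 0.267), and a second probe set read -0.03.

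The base excision genes divided. Ung, which removes uracil from DNA, rose at all 7 times from 0.25 to 3 d. It read 6.55, 6.54 and 6.36 at 0 d, 7.98, 8.15 and 8.63 at 0.5 d, 7.64, 7.36 and 7.54 at 1 d, and 8.54, 8.35 and 7.64 at 2 d. None of these overlapped with 0 d, and the means had maxima at 0.5 d and 2 d. Its rises were 1.77 (SE 0.28, limma adjusted p = 1.54e-05) at 0.5 d and 1.69 (SE 0.28, limma adjusted p = 6.51e-05) at 2 d, and 1.03 (SE 0.28) at 1 d. The rise of 0.94 at 3 d ended on omitting liver 1 or 2 of 3 d (highest adjusted p 0.0624, limma).

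Apex1, which cuts the strand at the base-free site that UNG leaves, read 9.31, 9.44 and 9.51 at 0 d and about 11, 10.16 and 9.79 at 0.25 d. All were higher than at 0 d, though replicate 1 stood far above the others. The rise was 0.89 (SE 0.19, limma adjusted p = 0.000381), and 0.55 without that array (adjusted p = 0.00471). With only the 0.25 d and 0 d arrays the adjusted p was 0.0501 (limma). The 2 other probe sets of Apex1 rose by 0.88 and 0.93. Its calls at 0.5 d (0.57) and 2 d (0.54) were weaker: the mean of its probe sets gave adjusted p-values of 0.0537 and 0.0566, and single omissions ended them, that of liver 1 of 0 d or liver 3 of 0.5 d at 0.5 d (highest 0.181), and that of any 0 d liver or liver 1 or 2 of 2 d at 2 d (highest 0.171, limma).

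The strand-break sensors Parp1 and Parp2 both had their highest mean at 2 d, and only Parp1 was called at 0.25 d; the difference between them was not tested. Parp1 read 8.48, 8.56 and 8.59 at 0 d and 7.64, 7.62 and 7.57 at 0.25 d, a fall of 0.93 (SE 0.09, limma adjusted p = 1.1e-08), and rose by 0.32 (SE 0.09) at 2 d, which had an adjusted p of 0.0533 with only the 2 d and 0 d arrays (limma). The 2 other tested probe sets of Parp1 fell at 0.25 d by 0.62 and 0.60. Its call at 0.5 d, -0.22, ended on omitting liver 2 or 3 of 0 d, or liver 3 of 0.5 d (highest adjusted p 0.367, limma), and the mean of its probe sets gave 0.0927 with the opposite sign (adjusted p = 0.3). Parp2 read 7.30, 7.43 and 7.35 at 0 d and 8.01, 8.12 and 7.95 at 2 d, a rise of 0.67 (SE 0.10, limma adjusted p = 1.51e-05). The scaffold gene Xrcc1 read 7.55, 7.33 and 7.36 at 0 d and 6.37, 6.85 and 7.00 at 0.25 d, a fall of 0.68 (SE 0.13), or of 0.49 without the low replicate 1. Lig3, the ligase that XRCC1 carries, was instead highest at 0.5 d with 7.65, 7.66 and 7.88 against 7.13, 7.18 and 7.06, a rise of 0.61 (SE 0.09, limma adjusted p = 1.43e-05), and 3 other probe sets of Lig3 rose by 0.40 to 0.52. The glycosylase gene Ogg1 and the polymerase gene Polb passed at no time.

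In nucleotide excision repair, Xpc, which finds distorted DNA, fell at all 7 times from 0.25 to 3 d. It read 7.88, 7.99 and 7.71 at 0 d, 6.68, 6.87 and 6.86 at 0.25 d and 7.03, 7.61 and 7.16 at 2 d. The groups did not overlap, and the falls were 1.05 (SE 0.13, limma adjusted p = 5.9e-07) and 0.59 (SE 0.13, limma adjusted p = 0.00139). With only the 2 d and 0 d arrays the latter had an adjusted p of 0.0549. At 4, 7 and 14 d the differences were -0.32, -0.39 and -0.34, none past the threshold. Ddb2, which recognises ultraviolet damage, read 6.50, 6.63 and 6.29 at 0 d and 5.73, 6.15 and 5.44 at 0.5 d, a fall of 0.70 (SE 0.15, limma adjusted p = 0.000497), or of 0.53 without replicate 3, and a second probe set fell by 0.44. Its fall of 0.42 at 0.25 d, where groups overlapped, did not pass when liver 1 or 2 of 0 d, or liver 1 or 3 of 0.25 d, was omitted (highest adjusted p 0.107, limma). Xpa, which checks the lesion, fell by 0.57 (SE 0.18) at 2 d with overlapping groups (limma adjusted p = 0.0222), a call that ended on omitting liver 1 or 2 of 0 d, or liver 1 or 3 of 2 d (highest 0.157). The nuclease subunit gene Ercc1, by the probe set used, stayed within 0.14 of 0 d in its mean, with no call. Another of its probe sets rose by 0.44 at 0.25 d, 0.35 at 0.75 d, 0.36 at 1.5 d and 0.35 at 2 d (limma adjusted p = 0.0346 at 2 d). Its remaining probe sets rose at 0.5 d, by 0.40 and 0.26.

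**Figure D4:**
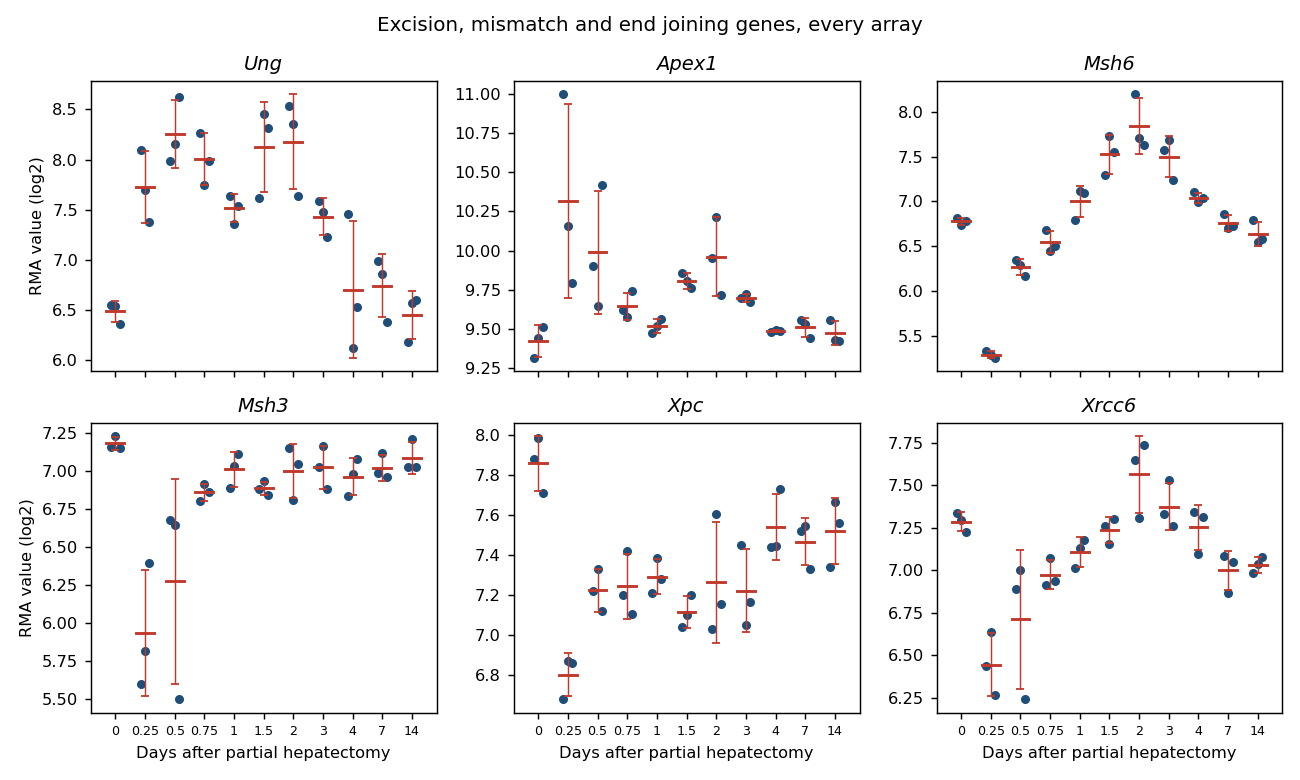
RMA values (log2) of Ung, Apex1, Msh6, Msh3, Xpc and Xrcc6 on every array against days after partial hepatectomy; points are livers, red bars the mean and error bars the SD of 3 livers. Ung is above 0 d from 0.25 to 3 d and Xpc below it, and Msh6 reads 5.25 to 5.33 at 0.25 d against 6.74 to 6.81 at 0 d.

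End joining genes, by the probe sets used, were called from 0.25 d to 0.75 d and in both directions. Xrcc6, one of the pair of proteins that ring a broken end, read 7.33, 7.29 and 7.22 at 0 d and 6.44, 6.63 and 6.27 at 0.25 d, a fall of 0.84 (SE 0.14, limma adjusted p = 2.82e-05) with no overlap. At 0.5 d it read 6.89, 7.00 and 6.24, and the difference was -0.57 with replicate 3 and -0.34 without it (adjusted p = 0.032, limma). The mean of its probe sets gave -0.26 then (adjusted p = 0.0599, limma). Its partner Xrcc5 passed at no time, and whether the pair differed was not tested. Lig4, the ligase of this route, and its cofactor Xrcc4 rose at 0.5 d by 0.51 (SE 0.17) and 0.40 (SE 0.11), with limma adjusted p of 0.0171 and 0.00656. Lig4 did not pass when liver 2 of 0 d, or liver 2 or 3 of 0.5 d, was omitted (highest adjusted p 0.12), nor Xrcc4 on omitting liver 3 of 0 d (0.0932). A second probe set of Xrcc4 rose at all 6 times from 0.5 d to 3 d, by 0.38 to 0.67, while the one used was called at 0.5 d and 0.75 d alone.

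At 0.5 d 9 genes rose and 9 fell, against 15.8% and 19.4% of all genes. Without 0.5 d replicate 3, 11 genes passed, 4 up and 7 down. With only the 0.5 d and 0 d arrays 9 passed, 3 up and 6 down, and Msh3, Parp1, Parp2, Apex1, Xrcc4, Xrcc6, Lig4, Nbn and Trp53bp1 did not (limma adjusted p 0.0582 to 0.255). The calls of Brca1, Parp1, Apex1, Lig4, Chek2, Nbn and Trp53bp1 were those lost without that array. Atm, the kinase that answers breaks, read 7.87, 7.76 and 7.72 at 0 d, 7.22, 7.39 and 7.26 at 0.25 d and 7.32, 7.45 and 7.21 at 0.5 d. Both times lay wholly below 0 d, with falls of 0.49 (SE 0.10) and 0.46 (SE 0.10), and a second probe set fell by 1.53 and 0.94. Rad50 read 5.70, 6.11 and 5.85 at 0.25 d against 6.54, 6.70 and 6.69, a fall of 0.75 (SE 0.12, limma adjusted p = 2.84e-05). Brca2 read 5.12, 5.34 and 5.54 at 0.25 d, a fall of 0.89 (SE 0.15, limma adjusted p = 3e-05). At 0.75 d 4 genes rose and 3 fell (9.84% and 12.7% of all genes), and at 1 d 3 rose and 1 fell (8.16% and 9.55%). These counts were 3 at 0.75 d without replicate 1 or 3 of that time and 4 without 0 d replicate 1 or 3, and 2 at 1 d without 0 d replicate 1 or 1 d replicate 2 or 3.

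**Figure D5:**
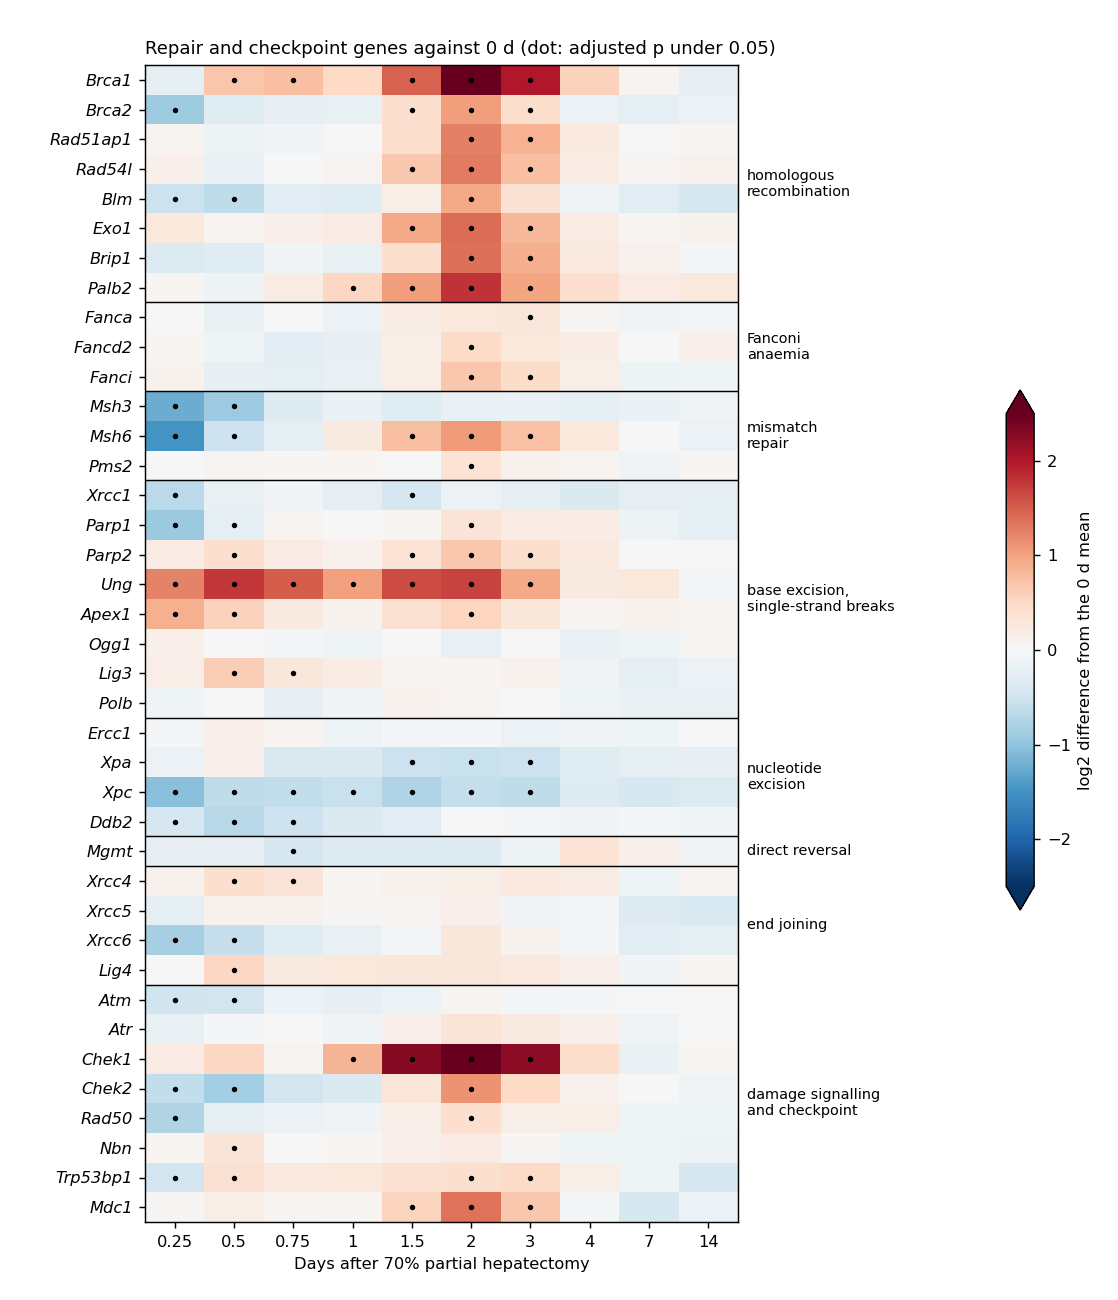
Log2 difference from the 0 d mean of the 39 genes tested, by class, against days after partial hepatectomy; red is higher, blue lower, and a dot marks adjusted p under 0.05. All 8 homologous recombination genes have a dot at 2 d and 7 at 3 d. Of these genes Brca1, Brca2 and Blm also have dots at 0.25 d or 0.5 d. Every other class except Fanconi anaemia and direct reversal has dots at 0.25 d or 0.5 d as well. There are 0 dots from 4 d on.

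A further 89 repair genes were listed by class beside these, and 71 were tested. At 2 d 22 of them (31.0%) rose and 4 (5.63%) fell, with a median of 0.12, against 11% and 11.6% of all genes. At 0.25 d 5 (7.04%) rose and 25 (35.2%) fell, against 17.2% and 28.8%. By class, 5 of 10 Fanconi anaemia genes, 8 of 16 signalling genes, 4 of 13 recombination genes and 0 of 3 mismatch genes rose at 2 d. The other rises at 2 d lay in the remaining classes, among them that of the end joining gene Tdp2, by 0.57 (SE 0.15). Large rises were those of Trip13, which remodels checkpoint and synapsis proteins, by 2.70 (SE 0.27), of Ube2t, the conjugating enzyme of the Fanconi route, by 2.65 (SE 0.28), of the replication ligase gene Lig1 by 2.40 (SE 0.23), of the core complex gene Fancb by 2.37 (SE 0.15), and of the fork protector gene Timeless by 1.92 (SE 0.23), all at 2 d. Eme1, a subunit of a junction nuclease, rose by 1.16 (SE 0.16) at 3 d. The recombination gene Rad51b rose more but earlier, by 1.35 (SE 0.42) at 0.75 d, with groups that overlapped. Early rises included Alkbh2, a direct reversal enzyme, by 0.89 (SE 0.17) and Ddb1, the partner of DDB2, by 0.50 (SE 0.12) at 0.5 d, and Parp3, a relative of Parp1, by 0.67 (SE 0.16) at 0.75 d. Among the recombination genes the helicase gene Wrn and Rmi1, a partner of BLM, fell at 0.25 d by 0.70 (SE 0.15) and 0.76 (SE 0.13), and neither was called at 2 d. Further early falls included Topbp1, which activates ATR, by 1.28 (SE 0.19) and Tdp2, which frees trapped topoisomerase, by 1.20 (SE 0.15) at 0.25 d, and the mismatch genes Pms1 by 0.75 (SE 0.17) and Mlh3 by 0.72 (SE 0.12). Wee1, which restrains entry into mitosis, fell by 1.96 (SE 0.49) at 0.5 d.

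Genes of the cell cycle and cell type markers moved at the same times. Of 19 tested cell cycle genes 18 rose at 2 d, with a median of 2.97, and 7 fell at 0.25 d. For this and the counts below, 17.2% of all genes rose and 28.8% fell at 0.25 d. The shares were 15.8% and 19.4% at 0.5 d, 11% and 11.6% at 2 d, and 10.2% and 10.9% at 3 d. Mki67, a marker of cycling cells, was higher by 3.70 (SE 0.49) at 2 d and by 4.04 (SE 0.49) at 3 d, and Pcna, the replication clamp gene, by 1.90 (SE 0.20) and 1.47 (SE 0.20). Of 13 p53 target genes 8 rose at 2 d. Cdkn1a, an inhibitor of cyclin kinases, was higher by 4.25 (SE 0.46) at 0.25 d. At 2 d marker calls were few: of 8 Kupffer cell and macrophage markers Marco rose and Clec4f and Csf1r fell, 1 of 8 sinusoidal endothelium markers fell, Fgb rose and Cyp2e1 fell among 8 hepatocyte markers, the tested erythroid marker Alas2 fell, and 0 of 8 stellate, 4 cholangiocyte, 4 neutrophil and 6 lymphocyte markers were called, with 0, 0, 1 and 1 at an unadjusted p under 0.05 in limma. The mean Kupffer and macrophage level ran from 7.56 to 8.06 at 0 d and from 7.66 to 8.03 at 2 d. At 3 d 5 of these 8 rose and the level ran from 8.71 to 9.25. At 0.25 d all 4 tested neutrophil markers rose (4.96 to 5.19 at 0 d, 6.11 to 6.43 at 0.25 d), Cidec and Fabp4 of the 4 tested adipocyte markers rose, and the stellate and fibroblast markers Lrat and Col3a1 fell. Of the endothelial markers Lyve1 then rose by 2.64 while Kdr, Fcgr2b and Stab2 fell, the cholangiocyte markers Epcam and Sox9 rose, Marco rose and Clec4f fell, Alas2 fell by 1.41, and Fgb and Hnf4a rose and Ttr fell among the hepatocyte markers. At 0.5 d 4 of the 8 Kupffer and macrophage markers fell and 1 rose, 3 of 8 stellate and fibroblast markers fell, 2 of 8 endothelial markers fell and 1 rose, 2 of 4 neutrophil, 2 of 4 adipocyte and 1 of 4 cholangiocyte markers rose, Alas2 fell, and 1 of 8 hepatocyte markers rose and 1 fell. The lymphocyte markers had 0 calls at both times, with 1 and 2 at an unadjusted p under 0.05 in limma. The part of these shifts in the repair gene changes was not tested. In bulk liver fewer cells of a type and less RNA per cell cannot be told apart.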

How the data were processed

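RNA of 33 livers was labelled from 5 µg of total RNA and hybridised to Affymetrix mouse genome arrays, per the labels' protocols. The authors deposited log2 values summarised with RMA, per the submitters' processing notes. The software version is not given in the sources used here. RMA makes array distributions alike and so removes a shift shared by most genes. The table held 45101 probe sets, of which 34945 carry a single gene symbol. Per gene the one with the highest mean was kept, and genes that read at least 5 (log2) in 3 or more arrays were tested (13642 of 18193). No depth exists for arrays, and 3 arrays per time limit the precision.

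In R 4.3.3, limma 3.58.1 (lmFit, eBayes) estimated 1 mean for each time from all arrays (22 residual and 3.69 prior degrees of freedom). P-values are two-sided, adjusted by Benjamini-Hochberg over all genes tested within a comparison, with a threshold of 0.05, and measure the spread between livers. On data simulated for 2 d against 0 d with 200 of 13642 genes changed, 56.7% of changes of 0.5, 91.0% of 1 and 98.5% of 2 were recovered, with 7 false calls (4.09% of calls). Figures come from Python 3.11.15 and its matplotlib 3.10.9 package.

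The 41 genes, the class and marker lists and the tests were chosen with earlier results of these data known. Any of the 41 could be named. Of the other repair genes up to 2 per class and direction with the largest differences could be named, and of the markers those called at times led with. Alternatives were dropping the limit on low values or raising it to 6, averaging the probe sets of a gene, quantile normalisation, an intensity trend with a robust prior, the replicate number as a block, only the arrays compared, and each array left out. Promoters are RefSeq's (GRCm38.p6).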

Additional observations from a re-analysis of the deposited data

How the results depend on the processing

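The counts of repair genes past the threshold stayed within 1.5 times their value with no limit on low values, a limit of 6, averaged probe sets, quantile normalisation and an intensity trend with a robust prior. With only the arrays compared, the count was 9 at 0.5 d in place of 18, 2 at 1 d in place of 4, and 15 at 2 d in place of 23. Leaving out each array gave 33 to 36 genes in the F-test, 12 to 15 at 0.25 d, 11 to 18 at 0.5 d, 3 to 5 at 0.75 d, 2 to 4 at 1 d, 8 to 11 at 1.5 d, 18 to 25 at 2 d, 11 to 14 at 3 d, 16 to 22 for 2 d against 1 d and 2 to 7 for 4 d against 3 d, and 0 in the other comparisons. Among the 97 single differences called against 0 d, 4 lost the call with no limit, 6 with quantile normalisation, 25 with only the arrays compared and 39 on leaving out at least 1 array. With the mean of probe sets 11 of 83 lost it and Parp1 at 0.5 d reversed to 0.0927, while 0 of 84 did with the limit at 6. The causes were not tested.

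Same-numbered livers of different times correlated between -0.35 and 0.39 (median 0.02, 33 of 165 pairs over 0.1). Livers with different numbers correlated between -0.35 and 0.43 (median -0.01, 52 of 330 pairs over 0.1). The replicate numbers were therefore not treated as pairs, though these values cannot exclude that same-numbered livers were handled together. With the number as a block 24 genes passed at 2 d in place of 23, 12 at 1.5 d in place of 13 and 16 at 3 d in place of 17; Brca2 at 1.5 d and Fanci at 3 d lost their calls. Signal near the array floor limits Rad54b and Bard1 and the 5 genes under 5 at 0 d.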
